A study of Homo sapiens with 4 samples.

Results

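Collagen genes were examined in poly(A) RNA-seq of NCI-H929, an established human multiple myeloma cell line, after targeting of BCL7A, which encodes a protein of the SWI/SNF (BAF) chromatin remodellers. A row of the deposited gene table was taken as a collagen gene when its whole name was COL, digits, A and digits, which gave 44 genes of 56809. Names such as COL4A3BP, COLQ or COL4A2-AS1, which only begin in the same way, were left out. The 4 libraries form 2 groups of 2. BCL7A knockout (KO) cells expressed the nuclease Cas9 and carried a doxycycline-inducible KO construct, and control cells expressed Cas9 and, per the protocol, carried a control construct. Sample titles name the controls wildtype instead, and that difference is not settled here. Cells of both groups went through 3 days of puromycin selection and were then given 0.5 ug/ml doxycycline for 24 h. Nothing in the labels says whether the KO cells were a clone or a pool, or whether the 2 libraries of each group were grown apart. The p-values therefore speak of the spread among these 4 libraries alone, and that spread may be technical.

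Collagens are secreted or membrane-bound proteins built of 3 chains wound into a triple helix, with glycine at regular steps along each chain. Fibrillar collagens form the tensile fibrils of connective tissue, type IV forms the mesh of basement membranes, type VI forms beaded filaments around cells, and FACIT collagens attach to the surface of fibrils. In bone marrow they are made mainly by stromal and bone-lining cells, whereas plasma cells bind collagen through surface receptors such as syndecan-1 and are specialised for secreting antibody. A helix forms only from particular sets of chains, so the genes are described below by the trimer their products join.

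Total counts were 38671744 and 40799624 in the KO libraries and 17567202 and 20153596 in the control libraries, so depth moved with the group. BCL7A itself had 46 and 44 counts in the KO libraries and 830 and 1014 in those of the control (log2 fold change -5.15, SE 0.11, adjusted p = 3.51e-25), in the direction of the labels. The labels call the cell type B lymphocyte, and a myeloma line derives from plasma cells, the antibody-secreting stage of that lineage. All 8 plasma cell markers were tested and higher in the KO libraries, as were 36.4% of all tested genes. The summed level of these markers was 11430 and 11423 CPM there and 6272 and 6330 CPM in the control libraries. CPM stands for the usual depth-scaled count, taken here over the library total times its TMM factor, and log2 fold changes are taken as KO over control. Rose and fell, as used below, mean higher and lower in the KO libraries at an adjusted p under 0.05 by edgeR over all 17885 tested genes.

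Of the 44 collagen genes, 43 were measured in the control group (1 count or more over its libraries) and 35 in the deeper KO group, with 34 measured in both. COL6A5 was the gene with counts in the KO group alone, a single count. The 9 genes with counts in the control group alone were COL1A2, COL3A1, COL4A1, COL4A2, COL6A6, COL8A2, COL10A1, COL11A1 and COL26A1. A count of 0 in both KO libraries allows a level of up to 3 counts over the group, or 0.0416 CPM, and the corresponding limit in the control group is 0.0723 CPM. Such limits, and the counting intervals given below, cover counting error only. By library, 32 and 30 collagen genes had a count in the KO libraries and 36 and 40 in the control libraries, and 24 had one in all 4. Over all genes of the table, 24212 and 24293 had a count in the KO libraries and 25792 and 26466 in the control libraries. Fewer genes with a count in the deeper KO libraries was thus not particular to collagen genes. At a minimum of 10 counts over a group, 21 genes remained in the KO group and 26 in the control group.

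The filter on low counts kept 25 collagen genes and removed 19. Of the 25, 17 fell, 5 rose and 3 did not pass. Among all tested genes 76.2% passed the same test, 36.4% upward and 39.8% downward, so passing was the common outcome in this comparison. For 11 of the 25 the filter was met by the control libraries alone and for 2 by the KO libraries alone, and such genes could hardly be kept without differing. The other 12 met the cutoff of 0.34 CPM in all 4 libraries, of which 7 fell, 3 rose and 2 did not pass. Over all genes that met it in all 4, 76.4% passed, 33.4% downward and 43.0% upward. The median log2 fold change was -2.05 over the 25 collagen genes and -0.54 over those 12, against -0.06 over all tested genes and 0.09 over all that met the cutoff in every library. Of those 12, 5 fell at least 2-fold (COL6A3, COL11A2, COL18A1, COL4A3 and COL4A4), where 13.2% of all genes that met the cutoff in every library did, and 1 of them, COL6A3, fell at least 10-fold, where 1.24% did. The 3 that rose (COL6A1, COL24A1 and COL27A1) rose at least 2-fold, where 9.75% did. The levels of 22 of the 25 tested collagen genes did not overlap between the groups, and with 2 libraries a group 87.4% of all tested genes did not.

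**Figure D1:**
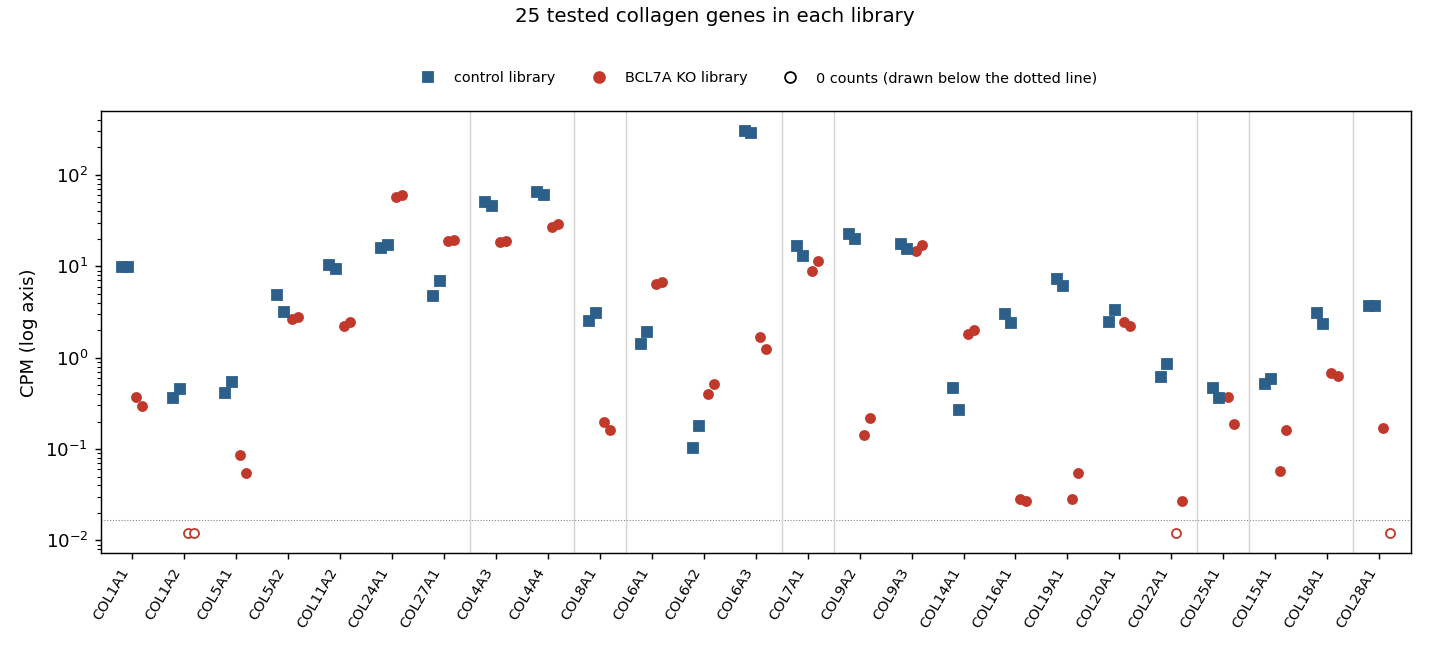
Level of the 25 tested collagen genes in each library, in CPM on a log axis, ordered by structural class (grey lines part the classes). Squares are control libraries, circles KO libraries and open circles libraries with 0 counts; COL6A3 lies near 300 CPM in both control libraries and under 2 CPM in both KO libraries, while COL24A1 is highest in the KO libraries.

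The make-up of collagen mRNA differed between the groups. Levels of different genes are compared as CPM per kb of exon, the union of all annotated exons of a gene. Summed over the 44 genes, this level was 46.3 and 43.2 in the control libraries and 18.8 and 20.2 in the KO libraries. COL6A3 was the largest component in the control group, with 33.0% and 33.8% of the sum, and made up 0.456% and 0.314% of it in the KO libraries. COL24A1 was the largest in the KO group, with 31.7% and 31.0%, against 3.57% and 4.14% in the control libraries. In plain counts, COL6A3 held 54.9% and 55.5% of all collagen counts of the control libraries. Without COL6A3 the summed collagen level was 246 and 229 CPM in the control libraries and 164 and 175 CPM in the KO libraries, so the groups still did not overlap.

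**Figure D2:**
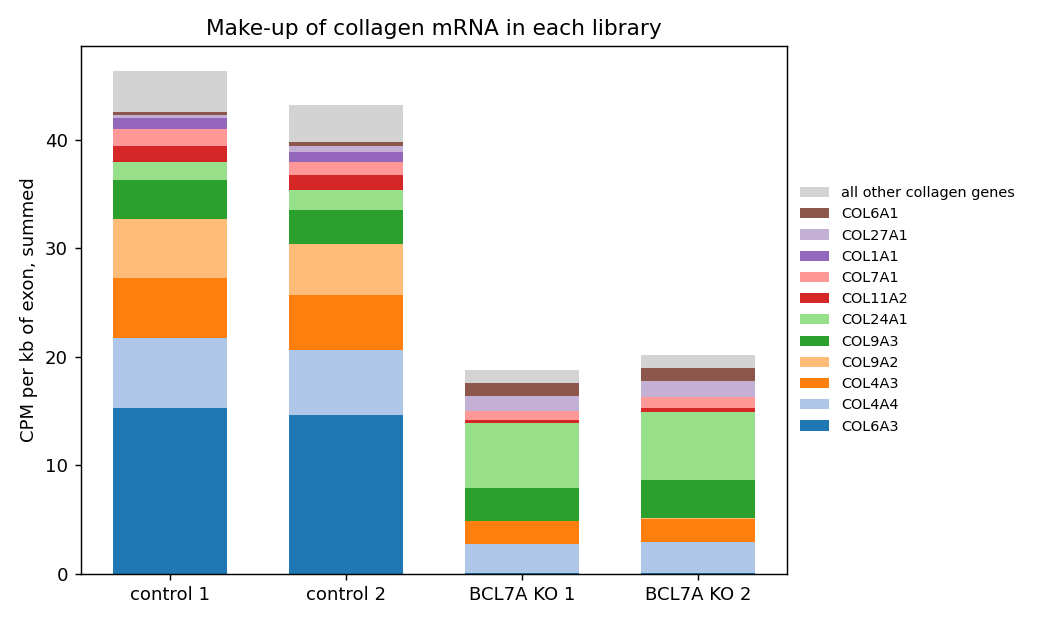
CPM per kb of exon summed over the 44 collagen genes in each library, split into the 11 genes named and all others. The sum is 46.3 and 43.2 in the control libraries, with COL6A3 as the lowest and tallest segment, and 18.8 and 20.2 in the KO libraries, where COL24A1 is the tallest.

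In the control group the order per length was COL6A3 (14.9 ± 0.480 CPM per kb, SD, n = 2), COL4A4 (6.25 ± 0.269), COL4A3 (5.30 ± 0.387), COL9A2 (5.04 ± 0.492) and COL9A3 (3.39 ± 0.289). COL4A3 and COL9A2 lay within each other's spread, and the others were separated by more than their SDs. When the longest transcript replaced the union of exons, COL6A3 stayed first but COL9A2 and COL9A3 moved to ranks 2 and 3, ahead of both type IV genes, and the level of COL6A3 became 27.3 CPM per kb. In the KO group COL24A1 came first (6.10 ± 0.212), then COL9A3 (3.32 ± 0.363), COL4A4 (2.79 ± 0.132), COL4A3 (2.06 ± 0.0419), COL27A1 (1.37 ± 0.0390) and COL6A1 (1.23 ± 0.0586). No other collagen gene exceeded 1 CPM per kb there. With the longest transcript the first 3 kept their ranks, COL27A1 (2.47 CPM per kb) passed COL4A3 (2.33), COL9A3 became 6.43 and COL7A1 also exceeded 1, at 1.10.

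Type VI chains moved apart. COL6A1, COL6A2 and COL6A3 encode the chains of the classical type VI trimer, which assembles into the microfilaments that surround many cells. COL6A3 (chromosome 2, 237324003 to 237414375, minus strand; all gene coordinates are GRCh38) had 59 and 46 counts in the KO libraries and 5795 and 6359 in the controls, or 1.68 and 1.25 against 300 and 287 CPM. Both control libraries were far above both KO libraries, a 200.5-fold difference (log2 fold change -7.65, SE 0.07, adjusted p = 2.09e-33), and by p the gene ranked 8 of all 17885 tested. COL6A1 (chromosome 21, 45981737 to 46005050) had 223 and 251 counts against 27 and 42, or 6.35 and 6.79 CPM against 1.40 and 1.89 CPM (log2 fold change 1.98, SE 0.19, adjusted p = 2.08e-10). Its neighbour COL6A2, which starts 93046 bases past its end on the same strand, was low throughout, with 14 and 19 counts against 2 and 4. COL6A2 met the filter through the KO libraries alone. Its groups did not overlap (log2 fold change 1.64, SE 0.65, adjusted p = 0.025), but the call rested on few counts. It was lost with DESeq2 (adjusted p = 0.171) and without KO replicate 2 (0.0824), control replicate 1 (0.141) or control replicate 2 (0.0563). Thus the chain that was most abundant in the control libraries fell, while COL6A1 rose. COL6A5 and COL6A6, whose products can take the place of the COL6A3 chain, had at most 2 counts in any library.

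Fibrillar collagens split as well, with 5 of 7 tested genes lower and 2 higher. Of those that fell, COL1A1, COL1A2 and COL5A1 met the filter through the control libraries alone. COL11A2 and COL5A2, which also fell, met its cutoff in every library, as did the 2 that rose. Over all genes that met it in every library, 33.4% fell and 43.0% rose. The 2 that rose are the short-helix members COL24A1 and COL27A1, which form a subgroup of their own within the class. COL24A1 (chromosome 1, 85729233 to 86156943, minus strand) had 1998 and 2208 counts in the KO libraries and 306 and 380 in the controls, or 56.9 and 59.8 against 15.8 and 17.1 CPM. It was 3.53-fold higher in the KO group (log2 fold change 1.82, SE 0.06, adjusted p = 2.01e-20). COL27A1 (chromosome 9, 114155560 to 114312511), best known from cartilage, had 661 and 724 counts against 91 and 154, or 18.8 and 19.6 against 4.71 and 6.94 CPM. Its control libraries differed from each other more than its KO libraries did, and still lay well below them (log2 fold change 1.71, SE 0.12, adjusted p = 4.77e-12).

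The other tested fibrillar genes lay on the other side. COL1A1 (chromosome 17, 50183289 to 50201632) and COL1A2 (chromosome 7, 94394561 to 94431232) encode the chains of type I collagen, the main collagen of bone and skin. COL1A1 had 13 and 11 counts in the KO libraries and 191 and 218 in the controls, or 0.37 and 0.298 against 9.88 and 9.82 CPM (log2 fold change -4.87, SE 0.23, adjusted p = 1.89e-17). COL1A2 had 0 counts in both KO libraries and 7 and 10 in the controls, which puts the control level at least 9.84-fold higher (adjusted p = 4.31e-05). Even in the control group the type I chains were unequal per length, at 1.00 ± 0.00434 CPM per kb for COL1A1 and 0.0364 ± 0.0056 for COL1A2, whereas the protein usually takes 2 chains of the first to 1 of the second. COL11A2 (chromosome 6, 33162681 to 33192499, minus strand), a chain of cartilage fibrils, had 78 and 91 counts against 202 and 210, or 2.22 and 2.46 against 10.5 and 9.46 CPM (log2 fold change -2.08, SE 0.16, adjusted p = 1.15e-12). COL5A1, a chain of the type V collagen that starts fibril assembly, had 3 and 2 counts against 8 and 12 (log2 fold change -2.71, SE 0.71, adjusted p = 0.0011). Its partner COL5A2 had 92 and 102 counts against 93 and 70, or 2.62 and 2.76 against 4.81 and 3.15 CPM (log2 fold change -0.55, SE 0.20, adjusted p = 0.0168). That call was lost with DESeq2 (adjusted p = 0.12) and whenever 1 library was left out other than control replicate 2, with the smallest change without control replicate 1 (log2 fold change -0.23, adjusted p = 0.351). The remaining fibrillar genes, COL2A1, COL3A1, COL5A3 and COL11A1, had at most 3 counts in any library.

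**Figure D3:**
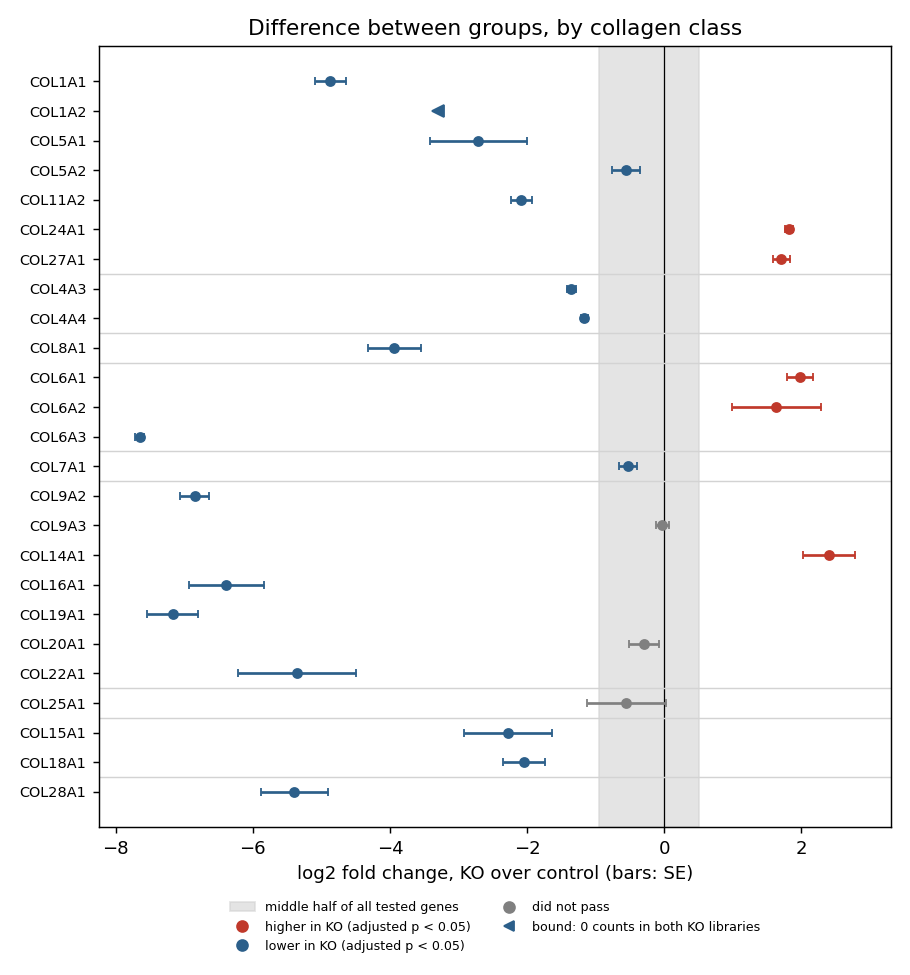
Log2 fold change, KO over control, of the 25 tested collagen genes with its SE, grouped by class; the grey band runs from the lower to the upper quartile of all 17885 tested genes (-0.96 to 0.51). The 5 genes that rose (red) lie between 1.64 and 2.40, the 17 that fell (blue) reach -7.65, and the triangle marks COL1A2 at its bound.

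Of the 6 type IV genes, COL4A3 and COL4A4 passed the filter, and they fell together. Their products join with that of COL4A5 in the trimer of the kidney glomerular basement membrane, and mutations in any of these genes cause Alport syndrome. COL4A3 (chromosome 2, 227164565 to 227314792, plus strand) had 652 and 706 counts in the KO libraries and 982 and 1017 in the controls, or 18.6 and 19.1 against 50.8 and 45.8 CPM (log2 fold change -1.36, SE 0.06, adjusted p = 2.84e-17). COL4A4 (chromosome 2, 227002711 to 227164453, minus strand) had 953 and 1072 against 1254 and 1355, or 27.1 and 29.01 against 64.9 and 61.1 CPM (log2 fold change -1.16, SE 0.05, adjusted p = 2.55e-17). Each KO library lay below each control library for the pair. COL4A3 shares 120 exon bases with the antisense gene AC097662.1, which held between 15 and 24 counts in each library, and the strand setting of the counting is not given in the sources used here. The remaining chain of that trimer had few counts, with COL4A5 at 2 and 1 counts in the KO libraries and 5 and 11 in the control libraries, a control over KO ratio of 9.26 (counting interval 2.65 to 49.6). It was below the filter, and with no filter it passed as lower (log2 fold change -2.98, adjusted p = 0.00767). COL4A1 and COL4A2, which form the type IV collagen found in nearly all basement membranes, had 0 counts in the KO libraries, 4 and 0 for COL4A1 and 3 and 2 for COL4A2 in the control libraries.

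COL4A3 and COL4A4 start back to back, with 111 bases between the first annotated bases of the GENCODE genes. Sequence upstream of a gene start was in the RefSeq table (GRCh38.p14) for 32 of the 44 collagen genes. Shown are the interval between this pair that fell together and, for contrast, the 250 bases before the RefSeq starts of COL27A1, which rose, and COL28A1, which fell. Each is written 5′ to 3′, the interval on the plus strand and the others on the strand of the gene. Capitals mark GGGCGG (the GC box) and CCAAT (the CCAAT box), searched on both strands; neither motif overlaps the other in these sequences.
COL4A4-COL4A3 interval, chr2:227164454-227164564: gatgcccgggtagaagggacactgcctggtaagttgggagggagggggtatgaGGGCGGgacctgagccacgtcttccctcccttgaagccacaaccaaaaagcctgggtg
COL27A1, chr9:114155287-114155536, plus strand: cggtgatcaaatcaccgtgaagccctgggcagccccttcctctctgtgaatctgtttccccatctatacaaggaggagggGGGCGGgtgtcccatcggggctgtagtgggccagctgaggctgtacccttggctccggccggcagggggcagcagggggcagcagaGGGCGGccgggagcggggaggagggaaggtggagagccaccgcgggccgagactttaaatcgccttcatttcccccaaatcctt
COL28A1, chr7:7535874-7536123, minus strand: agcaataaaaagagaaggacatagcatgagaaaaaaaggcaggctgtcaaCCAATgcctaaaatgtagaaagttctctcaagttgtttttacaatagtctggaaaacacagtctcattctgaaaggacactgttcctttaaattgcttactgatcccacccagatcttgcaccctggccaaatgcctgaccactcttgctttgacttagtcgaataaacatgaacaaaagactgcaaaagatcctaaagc

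The interval between COL4A4 and COL4A3 held 1 GC box and 3 CpG sites, and 32.8% of all RefSeq promoter windows of 111 bases held a GC box. The COL27A1 sequence held 2 GC boxes and 13 CpG sites, and the COL28A1 sequence held no GC box, 1 CCAAT box and 1 CpG site. Of all 250-base windows 42.5% held a GC box and 32.0% a CCAAT box, and the median number of CpG sites was 11. TATAAA and CACGTG, also searched on both strands, were in none of the 3 sequences. Such matches describe these letters only.

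FACIT collagens gave the largest number of tested genes beside the fibrillar class, with 4 of 7 lower, 1 higher and 2 that did not pass. Among all tested genes 76.2% passed. The 4 that fell met the filter through the control libraries alone. COL14A1, which rose, met its cutoff in both KO libraries and 1 control library. COL9A3 and COL20A1, which met it in every library, were the 2 that did not pass. COL9A2 and COL9A3 encode chains of type IX collagen, which coats the fibrils of cartilage. COL9A2 (chromosome 1, 40300487 to 40317813, minus strand) had 5 and 8 counts in the KO libraries and 439 in each control library, or 0.142 and 0.217 against 22.7 and 19.8 CPM, a 115-fold difference (log2 fold change -6.84, SE 0.21, adjusted p = 1.43e-21). COL9A3 (chromosome 20, 62816244 to 62841159) had 520 and 639 counts against 336 and 342, or 14.8 and 17.3 against 17.4 and 15.4 CPM, and its groups overlapped (log2 fold change -0.03, SE 0.09, adjusted p = 0.813). Its sign turned to positive in 3 of the alternative fits. COL9A3 shares 45 exon bases with TCFL5 on the opposite strand. The remaining type IX gene, COL9A1, had 6 and 8 counts in the KO libraries and 0 and 5 in the control libraries. Per length, COL9A2 exceeded COL9A3 in the control group, and in the KO group it was at 0.0426 ± 0.0124 CPM per kb beside 3.32 ± 0.363.

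COL19A1 and COL16A1, a pair of genes of the FACIT class, had nearly all of their counts in the control libraries. COL19A1 (chromosome 6, 69866571 to 70209976) had 1 and 2 counts in the KO libraries and 139 and 134 in the control libraries, a ratio of 158 with a 95% Clopper-Pearson counting interval of 53.5 to 771. It shares 70 exon bases with LMBRD1 on the opposite strand, which was at 47.9 CPM in KO cells and 42.3 CPM in control cells. COL16A1 (chromosome 1, 31652247 to 31704319, minus strand) had 1 count in each KO library and 58 and 53 in the control libraries, a ratio of 96.3 (interval 26.0 to 805). COL22A1, found at tissue junctions such as that of muscle and tendon, had 0 and 1 counts against 12 and 19 (ratio 53.8, interval 8.97 to 2193). The fitted log2 fold change of COL22A1 was -4.55 without KO replicate 1 and -7.26 without KO replicate 2, where no KO count was left. All 3 genes passed the test (largest adjusted p = 2.71e-06 for COL22A1).

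COL14A1 was the FACIT gene that rose. It had 64 and 75 counts in the KO libraries and 9 and 6 in the controls, or 1.82 and 2.03 against 0.466 and 0.27 CPM (log2 fold change 2.40, SE 0.38, adjusted p = 2.00e-06). COL20A1 had 87 and 82 counts against 47 and 73, or 2.48 and 2.22 against 2.43 and 3.29 CPM, and the groups overlapped (log2 fold change -0.29, SE 0.22, adjusted p = 0.221). COL12A1, a FACIT gene of dense connective tissue below the filter, had 9 and 5 counts against 8 and 4. COL21A1, also below it, had 7 and 0 counts against 2 and 2, so its KO libraries differed from each other.

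Both multiplexin genes, whose products sit in basement membrane zones, fell, of which COL15A1 met the filter through the control libraries alone. COL18A1 (chromosome 21, 45405137 to 45513720), the source of the fragment endostatin, had 24 and 23 counts in the KO libraries and 60 and 52 in the controls, or 0.683 and 0.623 against 3.10 and 2.34 CPM (log2 fold change -2.05, SE 0.30, adjusted p = 7.69e-07). It shares 1401 exon bases with SLC19A1 on the opposite strand, which was at 46.1 CPM in KO cells and 36.3 CPM in control cells. COL15A1 had 2 and 6 counts against 10 and 13 (log2 fold change -2.27, SE 0.64, adjusted p = 0.00227), and its fall reached -3.17 without KO replicate 2.

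COL7A1 (chromosome 3, 48564073 to 48595267, minus strand), the gene of the anchoring fibrils that fasten skin epithelium to the dermis, had 315 and 420 counts in the KO libraries and 322 and 288 in the control libraries. These are 8.97 and 11.4 against 16.7 and 13.0 CPM, without overlap but with a wide spread in each group (log2 fold change -0.53, SE 0.13, adjusted p = 0.0015). COL8A1, a short-chain collagen of vessel walls and of the corneal Descemet membrane, had 7 and 6 counts against 49 and 69, or 0.199 and 0.162 against 2.54 and 3.11 CPM (log2 fold change -3.94, SE 0.39, adjusted p = 3.38e-10). COL8A1 met the filter through the control libraries alone, as did COL28A1 below, and over all tested genes 39.8% fell. The other short-chain genes, COL8A2 and COL10A1, had at most 2 counts in any library. COL28A1, a collagen with von Willebrand factor A domains, had 6 and 0 counts in the KO libraries and 72 and 81 in the controls (log2 fold change -5.39, SE 0.48, adjusted p = 8.83e-10). Its KO level thus rested on KO replicate 1 alone, and the fitted value was -4.39 without KO replicate 2 and -9.59 without KO replicate 1, where no KO count was left.

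Transmembrane collagens stayed low in every library. COL25A1, a neuronal membrane collagen, had 13 and 7 counts in the KO libraries and 9 and 8 in the control libraries and overlapped between groups (log2 fold change -0.55, SE 0.58, adjusted p = 0.388). COL23A1 had 4 and 7 counts against 2 and 0. COL13A1 and COL17A1 had at most 3 counts in any library. Over the 19 genes below the filter, totals ran from 1 to 26 counts over the 4 libraries, and these genes summed to 61 counts in the KO group and 73 in the control group.

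**Figure D4:**
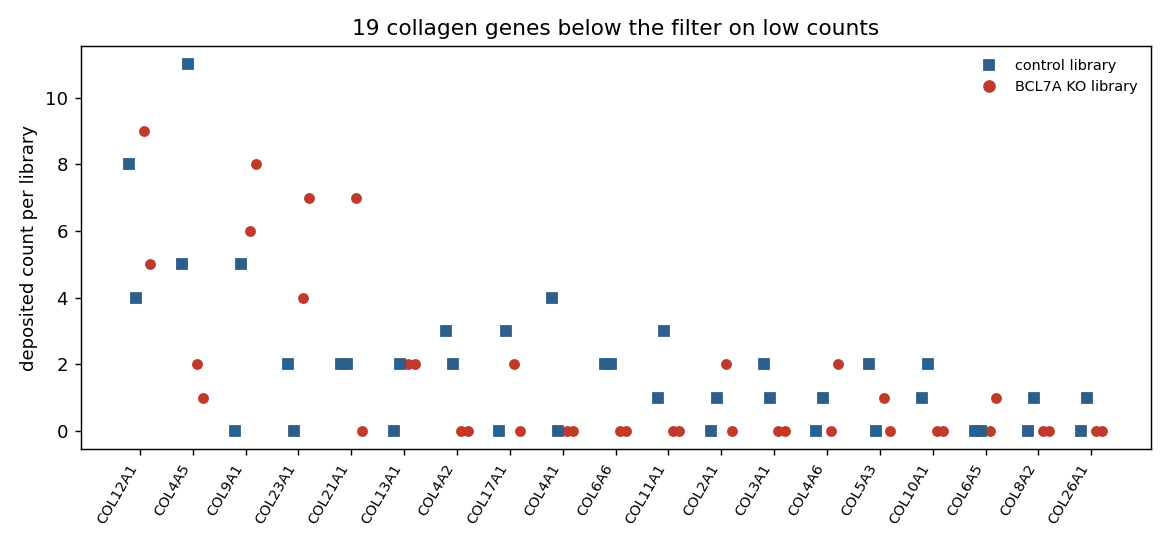
Deposited counts in each library of the 19 collagen genes that the filter removed, ordered by their total; squares are control and circles KO libraries, and values are not scaled to depth. No library holds more than 11 counts of any of them, and the 7 genes whose highest count is in a KO library are COL12A1, COL9A1, COL23A1, COL21A1, COL2A1, COL4A6 and COL6A5.

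Collagen genes that lie close together did not always move together. Of the pairs within 1 Mb of each other, COL4A3 and COL4A4 both fell and COL6A1 and COL6A2 both rose. The COL6A2 call rested on few counts, as given above, and over all tested genes 36.4% rose and 39.8% fell. COL18A1, on the same strand and 468016 bases before COL6A1, fell. COL19A1 and COL9A1 face each other tail to tail with 5084 bases between them. COL19A1 fell to 3 counts in the KO group, where COL9A1 held 14. COL9A3 and COL20A1, 452026 bases apart, both did not pass. COL3A1, tail to tail with COL5A2 at 19149 bases, had 3 counts in all. The back-to-back pair COL4A5 and COL4A6, 346 bases apart, had 19 and 3 counts over the 4 libraries.

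Genes that make and process collagen went in both directions, as did all tested genes, of which 36.4% rose and 39.8% fell. Of 35 such genes, 29 were tested, 12 rose, 14 fell and 3 did not pass, with a median log2 fold change of -0.05 (-0.06 over all tested genes). P4HB, the protein disulfide isomerase that is also the beta subunit of prolyl 4-hydroxylase, was 1837 and 1847 CPM against 873 and 864 CPM (log2 fold change 1.08, SE 0.02). P4HB serves the folding of many secreted proteins. PLOD1, a lysyl hydroxylase gene, was 93.9 and 93.4 against 57.0 and 55.5 CPM, P3H1, a prolyl 3-hydroxylase gene, 47.9 and 49.8 against 23.4 and 26.1 CPM, and the collagen galactosyltransferase gene COLGALT1 95.3 and 93.4 against 61.8 and 60.5 CPM. SERPINH1, the collagen chaperone HSP47, was 27.6 ± 0.993 against 27.2 ± 0.446 CPM and did not pass (adjusted p = 0.755).

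Other genes of the same list were lower in the KO libraries, some with no counts there. FKBP10, P3H3, LOXL3 and LOXL4 met the filter through the control libraries alone, while P3H4 and PCOLCE met its cutoff in every library. FKBP10, a prolyl isomerase that chaperones procollagen, had 0 counts in both KO libraries and 27.1 and 29.4 CPM in those of the control group, where it was at least 681-fold higher. P3H3, a prolyl 3-hydroxylase family gene, also had 0 counts, against 9.26 and 8.47 CPM, at least 212-fold higher in the control group. P3H4, which encodes a partner of lysyl hydroxylation, was 2.28 and 2.81 against 18.7 and 17.5 CPM (log2 fold change -2.82, SE 0.13). PCOLCE, an enhancer of the protease that trims procollagen ends, was 2.02 and 2.06 against 11.6 and 12.5 CPM (log2 fold change -2.56, SE 0.15). LOX, the founding member of the lysyl oxidases that crosslink collagen, had 0 counts in every library.

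Of 10 tested receptors of collagen 4 rose, 5 fell and 1 did not pass (median -0.45). Over all tested genes 36.4% rose and 39.8% fell, the shares to set beside this list and those that follow. Of the genes that fell in these lists, OSCAR, ADGRG1, MMP9 and SPARC met the filter through the control libraries alone. ITGA2 and LAMA2, which rose, met it through the KO libraries alone. As above, such genes could hardly be kept without differing. OSCAR, a collagen receptor of osteoclasts and myeloid cells, was 0.142 and 0.0812 CPM against 30.0 and 26.0 CPM (log2 fold change -7.92, SE 0.21). Of the paired discoidin domain receptors, DDR1 was 0.427 and 0.46 against 13.9 and 13.1 CPM and DDR2 176 and 174 against 110 and 107 CPM, so 1 fell and the other rose. SDC1, the heparan sulfate proteoglycan that also marks plasma cells, was 667 and 664 against 277 and 271 CPM (log2 fold change 1.28, SE 0.03). Among genes of collagen breakdown 3 of 6 rose, 2 fell and 1 did not pass (median -0.24). MMP13, a collagenase, was 25.6 and 27.2 against 2.54 and 3.47 CPM (log2 fold change 3.12, SE 0.12), while MMP9, a gelatinase, had 0 counts against 0.621 and 0.721 CPM, at least 16.2-fold higher in the control group. Of partners in the matrix, 5 of 10 rose, 4 fell and 1 did not pass (median 0.33). HSPG2, the basement membrane proteoglycan perlecan, was 7.60 and 6.87 against 55.9 and 49.4 CPM, LAMB3, a laminin chain gene, 1.68 and 1.71 against 24.5 and 26.7 CPM, and SPARC, a collagen-binding matrix protein gene, 0.0854 and 0.298 against 5.95 and 4.06 CPM. FBN1, the gene of fibrillin microfibrils, was 13.0 and 12.6 against 2.22 and 1.17 CPM, and FN1, the fibronectin gene, 4.76 and 4.55 against 1.19 and 0.856 CPM.

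**Figure D5:**
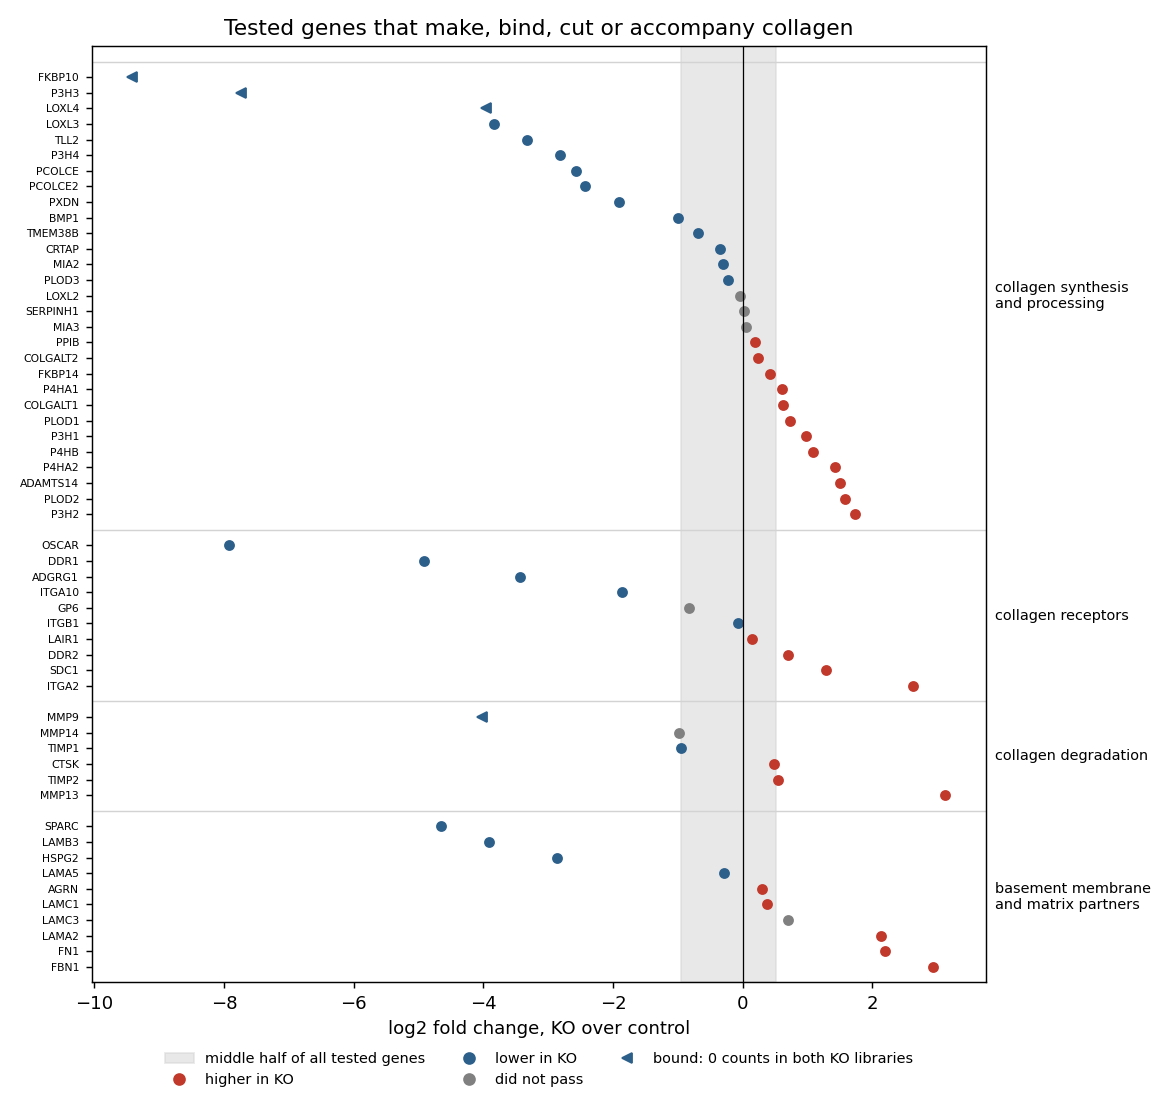
Log2 fold change, KO over control, of the tested members of 4 lists of genes that make and process, bind, degrade or accompany collagen; colours give the call and the grey band runs from the lower to the upper quartile of all tested genes. FKBP10, P3H3, LOXL4 and MMP9 are drawn at their bound because they had 0 counts in both KO libraries, and each list has members on both sides of 0.

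Markers of other cell types were measured beside these genes, in a comparison where 36.4% of all tested genes rose and 39.8% fell. Of 10 fibroblast markers 2 rose (FBN1, ACTA2), 2 fell (THY1, PDPN), 1 did not pass and 5 were below the filter. Their summed level was 32.4 and 31.4 CPM in KO libraries and 24.2 and 21.4 CPM in control libraries. Of the fibroblast proteoglycan genes, LUM was at 0 in all 4 libraries and DCN had 1 count in each KO library and 5 and 14 in the control libraries. THY1 and PDPN had 0 counts in the KO libraries and 3.17 ± 0.718 and 3.04 ± 0.350 CPM in the control libraries. The 6 endothelial markers summed to 97.9 and 99.2 CPM in KO libraries and 32.7 and 35.6 CPM in control libraries, nearly all of it PECAM1, which plasma cells express too; KDR and EMCN were at 0 throughout and VWF had 1 count in all. Of 6 epithelial markers 1 rose (KRT18), 2 fell (EPCAM, KRT8), 2 did not pass (CDH1, CLDN4) and KRT19 was below the filter. They summed to 12.5 and 13.2 CPM against 66.5 and 71.2 CPM, a sum carried by EPCAM, at 52.9 ± 2.12 CPM in the controls and 0 counts in the KO libraries, and KRT19 was at 0 in every library. Of 5 T cell markers 3 fell (CD8A, CD3E, CD3G) and 2 were below the filter. They summed to 14.07 and 13.97 CPM against 27.2 and 28.3 CPM, with CD3D at 0 in every library. Of the markers that fell, THY1, PDPN, EPCAM, CD8A and CD3G met the filter through the control libraries alone. Fewer cells of a type and less RNA per cell cannot be told apart in bulk RNA, and the part of other cell types in the collagen differences was not tested.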

How the data were processed

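Estimated counts for each gene were deposited by the authors as whole numbers. Per the submitters' processing notes, Salmon 0.12 and the GRCh38 build were used. Per the labels' protocols the library kit kept strand, but which annotation and strand setting the counting used is not given in the sources used here, and genes with antisense or overlapping partners are uncertain. The 92 ERCC spike-in rows, which summed to at most 5 counts in a library, were left out. Positions and exon lengths came from GENCODE release 29.

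Counts were filtered with filterByExpr (17885 genes kept), scaled with TMM factors and compared in edgeR 4.0.16 (glmQLFit with robust=TRUE, glmQLFTest, no covariates, all 4 libraries), with Benjamini-Hochberg adjustment over all tested genes and a threshold of 0.05. The SE is the absolute log2 fold change over the square root of F. No set test was made. The scripts were tested on simulated data. Replicates were counted separately, since their counts varied beyond sampling noise (chi-square over its degrees of freedom, 1.77 for KO and 2.37 for control).

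Every collagen gene is accounted for, with full values for each that passed the filter or had at least 10 counts over the 4 libraries. Of other lists, up to 4 genes per direction by smallest p were eligible, and further ones were named after their values were seen (SERPINH1, LOX, overlapping genes and single cell type markers). The collagen genes and all lists were chosen with earlier results of these data known. Alternatives tried were upper-quartile or RLE scaling, a stricter filter or none, DESeq2 1.42.0, limma-voom (limma 3.58.1), the replicate block, no robust shrinkage, KO libraries thinned to the control depth, and each library left out.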

Additional observations from a re-analysis of the deposited data

How the results depend on the processing

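Over 13 alternative fits, counts of collagen genes ranged from 4 to 5 higher and from 13 to 18 lower (5 and 17 in the report), with 13 under the stricter filter, which tested fewer collagen genes, and 18 with no filter, which added COL4A5. Of 315 pairs of a tested collagen gene and an alternative, 304 kept direction and side of the threshold, and 22 of the 25 genes did so in every alternative that tested them. COL5A2 and COL6A2 lost the threshold in 4 alternatives each, as given in the report. COL9A3, which did not pass, turned to 0.0579 on the log2 scale with no filter and ranged from -0.144 to 0.0795 with 1 library left out, above 0 without KO replicate 1 or control replicate 1. At a minimum of 10 counts over a group, the collagen genes measured were 21 in the KO and 26 in the control group, against 35 and 43 at 1 count; leaving out 1 library gave 30 to 32 and 36 to 40. Upper-quartile factors moved the median of all genes by -0.13 on the log2 scale. The replicate block left 5 collagen genes higher and 17 lower, 11 and 14 genes of collagen synthesis (12 and 14 in the report) and 12 and 10 of the other 3 lists (12 and 11). Same-numbered libraries did not deviate together (r = -0.0089 across genes). No pairing by number was seen, but this correlation of replicate differences cannot exclude it. Depth limits the 19 genes below the filter, of which 1, COL4A5, passed when all were tested with no filter.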
